A study of Mus musculus with 20 samples.

Results

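Disallowed genes are genes that most tissues use and that mature β-cells, the insulin-secreting cells of the islet, keep at very low levels. This report follows 10 of them, *Ldha*, *Slc16a1*, *Hk1*, *Hk2*, *Acot7*, *Igfbp4*, *Pdgfra*, *Oat*, *Mgst1* and *Smad3*, in RNAseq of mouse islets that lacked mitofusin 1 (*Mfn1*), mitofusin 2 (*Mfn2*) or both in β-cells. The genes were taken by name, and all 10 were found among the 28632 genes of the count table. The question was whether genes of this class stood higher in islets whose β-cells could no longer fuse their mitochondria.

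The libraries came from whole islets of mice aged 12 weeks, isolated with collagenase and kept in culture for a day before RNA extraction. The 4 groups were Ctrl (6 libraries, 3 female and 3 male), β-Mfn1KO (4 libraries, 3 female and 1 male), β-Mfn2KO (5 libraries, 2 female and 3 male) and β-Mfn1/2DKO (5 libraries, 2 female and 3 male). β-Mfn1KO mice carried *Mfn1* alleles flanked by loxP sites, β-Mfn2KO mice carried such *Mfn2* alleles, and β-Mfn1/2DKO mice carried both, in each case with Cre driven from the *Ins1* locus. The labels give the genotypes as Mfn1-/-, Mfn2-/- and Mfn1-/-;Mfn2-/-, yet the deletion is confined by design to cells that express *Ins1*, and the other islet cells keep both genes. The labels call Ctrl wild type, while the study's control animals carried either Cre without floxed alleles or the reverse. The labels do not say whether each library was 1 mouse, but the study's legend counts 6, 4, 5 and 5 mice, with littermate controls. Which libraries came from littermates is not given. The p-values measure the spread between these libraries.

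In mature β-cells, glucose is used in proportion to its level and pyruvate is sent to the mitochondria. Lactate dehydrogenase A (*Ldha*) and the monocarboxylate transporter MCT1 (*Slc16a1*) would let pyruvate and lactate leave or enter the cell by another route, and the high-affinity hexokinases (*Hk1*, *Hk2*) would phosphorylate glucose even when it is low. Rises of such genes in β-cells are known from immature and from stressed or diabetic islets. Several of the same genes are abundant in the fibroblasts, leukocytes, endothelial cells and exocrine cells that come along with isolated islets.

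Sequences just before a transcription start of 3 of the genes are shown, because *Slc16a1* and *Hk1* were the pair that passed the test in β-Mfn1/2DKO islets and *Ldha* is the enzyme that works beside MCT1. Each is the run of 250 bases before a RefSeq transcription start on GRCm38.p6, written 5′ to 3′ on the strand of the gene, with capitals on every ACGTG, the core of a hypoxia response element, read on both strands. The palindrome CACGTG holds a match on each strand.
*Slc16a1* (plus strand, chr3:104638414-104638663): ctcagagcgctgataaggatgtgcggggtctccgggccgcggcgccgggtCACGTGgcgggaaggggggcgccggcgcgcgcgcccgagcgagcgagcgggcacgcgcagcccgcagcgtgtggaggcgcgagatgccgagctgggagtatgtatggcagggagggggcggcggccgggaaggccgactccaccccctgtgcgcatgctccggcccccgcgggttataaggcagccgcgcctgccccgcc
*Ldha* (plus strand, chr7:46845554-46845803): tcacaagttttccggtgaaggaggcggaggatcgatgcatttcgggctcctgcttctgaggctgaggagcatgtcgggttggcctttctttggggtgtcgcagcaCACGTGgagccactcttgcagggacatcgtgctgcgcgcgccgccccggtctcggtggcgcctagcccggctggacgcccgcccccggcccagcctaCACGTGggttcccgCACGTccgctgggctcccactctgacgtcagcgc
*Hk1* (minus strand, chr10:62379909-62380158): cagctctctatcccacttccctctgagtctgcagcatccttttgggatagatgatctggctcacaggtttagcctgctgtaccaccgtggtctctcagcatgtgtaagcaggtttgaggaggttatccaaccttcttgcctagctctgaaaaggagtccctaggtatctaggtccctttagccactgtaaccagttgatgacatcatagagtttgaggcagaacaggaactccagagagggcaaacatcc
The *Slc16a1* window held 37 CG dinucleotides, more than 97.8% of the 32851 mouse promoter windows of that length, whose median was 6. The *Ldha* window shown held 25 and the *Hk1* window shown held 1. Both genes have a second RefSeq start, whose window held 9 in *Ldha* and 14 in *Hk1*. ACGTG matched 5 times in the *Ldha* window shown and 0 times in the second *Ldha* window. It matched 2 times in the *Slc16a1* window, 2 times in that of *Hk2* and not in the windows of the other 7 genes. Of all windows 16.57% had at least 1 match. TGATGNAA, the core of an amino acid response element, was in none of the windows of the 10 genes and in 3.452% of all windows. These matches describe letters only. In the GRCm38 annotation the windows shown for *Slc16a1* (chr3:104638668-104658462, plus strand) and *Hk1* (chr10:62268855-62379908, minus strand) lie outside the gene, next to its start. The one shown for *Ldha* (chr7:46841475-46855627, plus strand) lies inside the annotated gene, because the RefSeq start used here is downstream of the first base of that gene.

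In Ctrl islets the 10 genes ran from 0.0953 to 10.8 when read per length. The scale here is TPM, counts divided by exon length and scaled to the same total in each library. Mean Ctrl levels were 10.8 TPM for *Ldha*, 6.06 for *Oat* (ornithine aminotransferase), 3.95 for *Igfbp4* (a secreted binder of insulin-like growth factors) and 3.44 for *Hk1*. *Acot7*, an acyl-CoA thioesterase, stood at 3.17 TPM and *Smad3*, which carries TGF-β signals to the nucleus, at 2.41. *Mgst1*, a microsomal glutathione transferase, stood at 1.35 TPM, *Slc16a1* at 0.617, *Hk2* at 0.449 and *Pdgfra*, the PDGF receptor of mesenchymal cells, at 0.0953. The ranges of Ctrl libraries overlapped for every pair of neighbours in this order, so the order holds only between genes further apart. *Ldhb*, the other lactate dehydrogenase subunit, was higher at 21.9 TPM, and insulin mRNA from *Ins2* stood at 218078 TPM. Of all 28632 genes 26.5% lay above *Ldha*, 45.3% above *Mgst1*, 51.1% above *Slc16a1* and 68.3% above *Pdgfra*. These whole-islet levels do not by themselves set the class apart, since 7 of the 10 genes lay above the middle of all genes. Whether a transcript of these genes came from a β-cell cannot be read from whole-islet RNA.

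Libraries that stood apart have to be named before the comparisons. Depth was 12.4 to 20.3 M counts in Ctrl, 15.7 to 16.7 M in β-Mfn1KO, 15.1 to 59.5 M in β-Mfn2KO and 65.5 to 122.9 M in β-Mfn1/2DKO (M for mega), so depth and the double knockout cannot be told apart. Among 20 libraries, Ctrl 6 and β-Mfn2KO 5 had the most RNA of mesenchymal cells (12 markers summing to 133.4 and 156.5 TPM, against 13.7 to 59.2 in the others) and of leukocytes (12 markers summing to 1260.0 and 1843.5 TPM, against 146.3 to 418.3). Pancreatic acinar markers (15 genes) summed to 49208 and 112805 TPM in β-Mfn1/2DKO 4 and β-Mfn1/2DKO 5, to 16302.5 in β-Mfn2KO 4 and to 223.1 to 4370.7 in the other libraries. The summed TPM of ductal markers (7 genes) was highest in β-Mfn2KO 5 and β-Mfn1/2DKO 4, at 1108.3 and 887.1. The ductal score used below, the mean log2 CPM (counts scaled to a common library size) of the same 7 genes, ranked libraries otherwise. It was highest in β-Mfn1/2DKO 5 and 4, at 4.72 and 4.61, and stood at 3.56 in β-Mfn2KO 5, below Ctrl 4 at 3.70. These libraries are named by their replicate number throughout. Ctrl 6, β-Mfn2KO 5 and β-Mfn1/2DKO 4 and 5 are called the 4 libraries that stood apart. Each comparison was repeated without them, in pairs and together. β-Mfn2KO 4 stayed in these fits, with its acinar RNA, and was left out on its own.

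The plot of all 10 genes by library shows how much these 4 libraries set the picture. Ctrl 6, β-Mfn2KO 5, β-Mfn1/2DKO 4 and β-Mfn1/2DKO 5 held 31 of the 40 places among the 4 highest libraries of each gene. β-Mfn2KO 5 was the highest library of its group for 10 of 10 genes, Ctrl 6 was the highest of Ctrl for 7, and β-Mfn1/2DKO 4 or β-Mfn1/2DKO 5 was the highest of its group for 9. What part the RNA of other cells has in the differences below was not tested beyond the values given beside each of them.

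**Figure D1:**
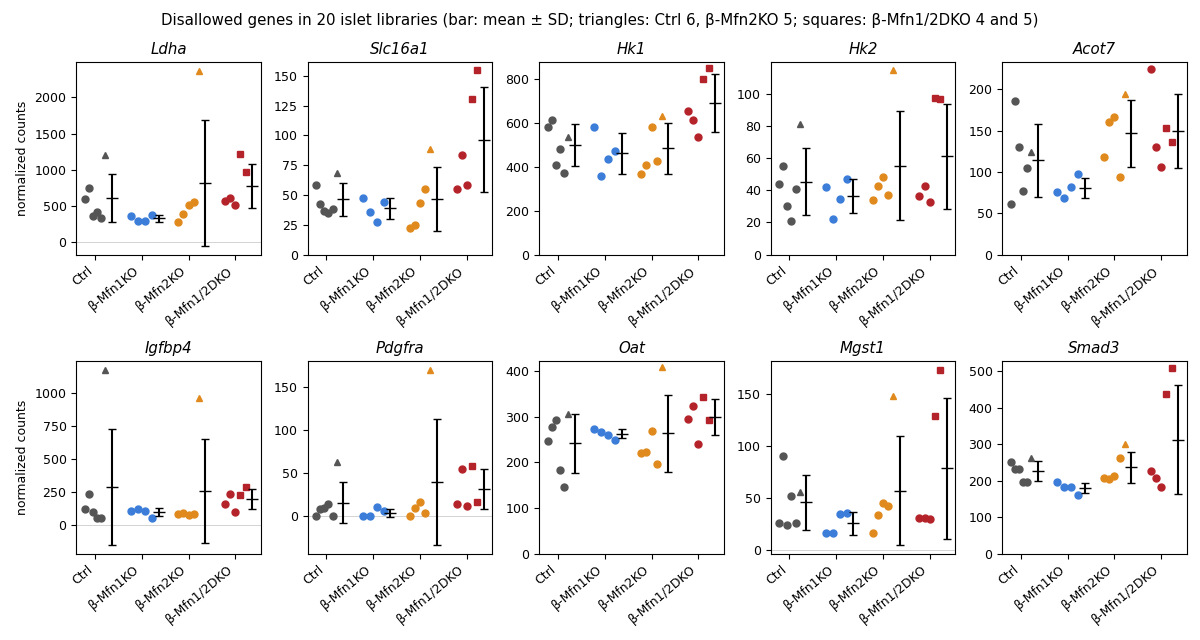
Normalized counts (y axis, linear) of the 10 disallowed genes in the 20 islet libraries, grouped by genotype (x axis), with the mean ± SD of each group beside its points. Triangles are Ctrl 6 and β-Mfn2KO 5 and squares are β-Mfn1/2DKO 4 and 5, the libraries with the most mesenchymal and leukocyte RNA and the most acinar RNA, and they stand at or near the top for most genes.

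*Slc16a1*, the MCT1 transporter of lactate and pyruvate, was the gene with the clearest difference. The values that follow are normalized counts, that is counts scaled for depth and composition with TMM. *Slc16a1* ran from 35.1 to 68.5, with a median of 40.1, in Ctrl. It stood at 47.5, 35.7, 27.3 and 44.4 in β-Mfn1KO and at 22.6, 24.6, 43.1, 55.4 and 88.5 in β-Mfn2KO. In β-Mfn1/2DKO the values were 55.0, 83.9, 58.6, 131 and 155. The 2 highest of these were the libraries with acinar RNA, β-Mfn1/2DKO 4 and 5. β-Mfn1/2DKO 2 also lay above every Ctrl library, and β-Mfn1/2DKO 1 and 3 lay inside the Ctrl range. The depth behind them was small in the controls, 10 to 22 raw counts per Ctrl library against 166 to 333 in β-Mfn1/2DKO. In edgeR's quasi-likelihood test the log2 fold change between β-Mfn1/2DKO and Ctrl was 1.05 (SE 0.33, adjusted p = 0.0315), that is 2.07-fold. Without β-Mfn1/2DKO 4 and 5 it was 0.52 (adjusted p = 0.385), and without Ctrl 6 and β-Mfn2KO 5 it was 1.19 (adjusted p = 0.00912).

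*Hk1*, the high-affinity hexokinase of most tissues, rose as well in β-Mfn1/2DKO islets, by less. It ran from 370.1 to 616, with a median of 509.6, in Ctrl and stood at 583, 357, 435 and 474 in β-Mfn1KO. In β-Mfn2KO it stood at 369.6, 411, 584, 427 and 631. The β-Mfn1/2DKO libraries gave 654, 613, 537, 803 and 853. Again β-Mfn1/2DKO 4 and 5 were highest, and β-Mfn1/2DKO 2 and 3 lay inside the Ctrl range. The log2 fold change from Ctrl was 0.46 (SE 0.16, adjusted p = 0.0473), with a 95% interval from 0.15 to 0.77, and it was below the 1.5-fold limit used for calling a gene. Without β-Mfn1/2DKO 4 and 5 it was 0.28 (adjusted p = 0.338).

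*Hk2*, the insulin-responsive hexokinase of muscle and fat, had a mean of 45.3 ± 21.0 (SD, n = 6) in Ctrl and 61.2 ± 32.8 (SD, n = 5) in β-Mfn1/2DKO. Its β-Mfn1/2DKO libraries split, at 36.6, 42.9, 32.8, 97.2 and 96.6, and the first 3 lay inside the Ctrl range of 21.0 to 80.9, with a median of 42.2. Its log2 fold change of 0.42 (SE 0.38, adjusted p = 0.538) did not pass.

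*Ldha*, which turns pyruvate into lactate, varied widely between libraries of Ctrl, of β-Mfn2KO and of β-Mfn1/2DKO, and little between those of β-Mfn1KO. It ran from 332 to 1195, with a median of 499, in Ctrl, where the highest value was Ctrl 6. It stood at 360.1, 286, 283 and 363 in β-Mfn1KO, at 268, 384, 514, 545 and 2366 in β-Mfn2KO and at 559, 607, 503, 1220.4 and 972 in β-Mfn1/2DKO. The ranges of β-Mfn1/2DKO and Ctrl overlapped over most of their span, and the log2 fold change came to 0.35 (SE 0.43, adjusted p = 0.653). It was 0.66 (adjusted p = 0.0688) without Ctrl 6 and β-Mfn2KO 5 and −0.10 without β-Mfn1/2DKO 4 and 5. *Ldhb* was steadier, with 586 ± 46.1 (SD, n = 6) in Ctrl and 548 ± 30.6 (SD, n = 5) in β-Mfn1/2DKO. In TPM, *Ldha* made up 31.1 ± 9.76% of the 2 subunits in Ctrl (SD, n = 6), 20.2 ± 1.79% in β-Mfn1KO (SD, n = 4), 34.0 ± 18.0% in β-Mfn2KO (SD, n = 5), and it reached 39.0 ± 9.96% in β-Mfn1/2DKO (SD, n = 5). These ranges overlapped between β-Mfn1/2DKO and Ctrl, and the highest share, 65.3%, was that of β-Mfn2KO 5.

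*Smad3* was split within β-Mfn1/2DKO. The gene stood at 227, 207, 183, 437 and 509.6 in β-Mfn1/2DKO and ran from 195 to 262, with a median of 231, in Ctrl. β-Mfn1/2DKO 4 and 5 were above every other library of the series, and the other 3 lay inside or below the Ctrl range. It stood at 195, 181, 184 and 161 in β-Mfn1KO and at 206, 205, 213, 261 and 301 in β-Mfn2KO. Against Ctrl the log2 difference was 0.46 (SE 0.21, adjusted p = 0.167), and −0.12 without β-Mfn1/2DKO 4 and 5. It passed when β-Mfn1/2DKO 3 alone was left out. *Mgst1* had the same split, with 31.4, 30.9, 29.6, 129 and 173 in β-Mfn1/2DKO and values from 24.3 to 91.0, with a median of 39.4, in Ctrl. Its β-Mfn2KO libraries were at 16.9, 33.5, 45.8, 42.5 and 149, and its log2 fold change of 0.74 (SE 0.54, adjusted p = 0.418) turned to −0.59 without β-Mfn1/2DKO 4 and 5.

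*Igfbp4* and *Pdgfra*, both genes of mesenchymal cells, were set apart by Ctrl 6 and β-Mfn2KO 5. *Igfbp4* ran from 49.1 to 1171, with a median of 108, in Ctrl, and stood at 84.6, 89.3, 72.7, 77.3 and 962 in β-Mfn2KO, at 106, 121, 102 and 52.7 in β-Mfn1KO and at 154, 230.5, 92.8, 223 and 287 in β-Mfn1/2DKO. In each of Ctrl and β-Mfn2KO 1 library was several times the next, and the β-Mfn1/2DKO values lay within the Ctrl range. Its log2 fold change in β-Mfn1/2DKO was −0.53 (SE 0.72, adjusted p = 0.676) and turned to 0.81 (adjusted p = 0.105) without Ctrl 6 and β-Mfn2KO 5. *Pdgfra* had no count in Ctrl 1 and 5, β-Mfn1KO 1 and 2 and β-Mfn2KO 1, where 3 counts, the limit that a count of 0 allows, would be 8.25 to 8.74 normalized counts. Its highest values were 62.3 in Ctrl 6 and 169 in β-Mfn2KO 5, and in β-Mfn1/2DKO it stood at 14.1, 54.9, 11.6, 58.0 and 16.8. The log2 fold change in β-Mfn1/2DKO was 1.02 (SE 0.97, adjusted p = 0.558), and 2.30 (adjusted p = 0.0371) without Ctrl 6 and β-Mfn2KO 5. *Pdgfrb*, the pericyte receptor of the same family, stood at 388 ± 124 (SD, n = 6) in Ctrl and 614 ± 109 (SD, n = 5) in β-Mfn1/2DKO and rose by 0.67 on the log2 scale (adjusted p = 0.0210). Fewer cells of a type and less RNA per cell cannot be told apart in such bulk libraries.

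*Oat* and *Acot7* showed small differences that did not pass. *Oat* ran from 146 to 305, with a median of 262, in Ctrl and stood at 295, 324, 240.3, 344 and 293 in β-Mfn1/2DKO, higher on the log2 scale by 0.31 (SE 0.18, adjusted p = 0.298). *Acot7* ran from 61.1 to 186, with a median of 115, in Ctrl and stood at 224, 130.0, 107, 153 and 136 in β-Mfn1/2DKO, a log2 difference of 0.38 (SE 0.24, adjusted p = 0.340). The highest *Acot7* value of β-Mfn1/2DKO was β-Mfn1/2DKO 1, a library with 1391.0 TPM of acinar and 44.2 TPM of mesenchymal markers, and *Acot7* was the gene of the 10 whose β-Mfn1/2DKO maximum was neither β-Mfn1/2DKO 4 nor β-Mfn1/2DKO 5.

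Counted together, 2 of the 10 genes passed an adjusted p under 0.05 in β-Mfn1/2DKO against Ctrl, both higher, while 16.5% of all 28632 genes passed and 9.59% passed as higher. With the 1.5-fold limit 1 of 10 was called, *Slc16a1*, against 5.21% of all genes. Since low genes rarely pass, the fairer background is the 15094 genes whose mean was 20 normalized counts or more, which hold all 10 members. There 29.4% passed, and 17.3% passed as higher, so the members' count of 2 was near the background. Shares of all genes, here and below, include low genes and can lie under a background at the members' levels. The log2 fold change was positive for 9 of 10, with a median of 0.44 against 0.06 over all genes, and no gene separated β-Mfn1/2DKO from Ctrl without overlap (10.6% of all genes did). Without β-Mfn1/2DKO 4 and 5 the median was 0.08, 5 of 10 were positive and 0 passed, against 11.2% of all genes. Without Ctrl 6 and β-Mfn2KO 5 the median was 0.65, 10 of 10 were positive and 3 passed (*Slc16a1*, *Hk1* and *Pdgfra*), against 17.9% of all genes. Without all 4 libraries the median was 0.32 and 0 passed, against 14.0%. At an unadjusted p under 0.05 the full fit had 3 of the 10 genes, against 27.8% of all genes.

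**Figure D2:**
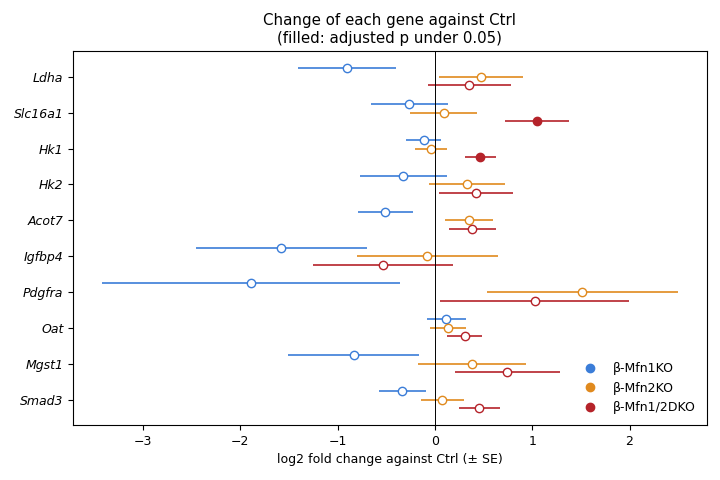
Log2 fold change against Ctrl (x axis, ± SE) of each disallowed gene (y axis) in the 3 knockout groups, from 1 edgeR fit over 20 libraries. Filled points passed an adjusted p under 0.05, which were Slc16a1 at 1.05 and Hk1 at 0.46 in β-Mfn1/2DKO, and open points did not.

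The single knockouts gave no call. In β-Mfn1KO against Ctrl 0 of 10 passed with edgeR or with DESeq2, and 0.0279% of all genes passed. At an unadjusted p under 0.05 in edgeR the count was 0 of 10, against 7.44% of all genes. The log2 fold change was negative for 9 of 10, with a median of −0.42 against 0.00 over all genes, and the largest were those of *Pdgfra* (−1.89), *Igfbp4* (−1.58) and *Ldha* (−0.90, with a 95% interval from −1.88 to 0.08). *Oat* was the exception at 0.12. In β-Mfn2KO against Ctrl 0 of 10 passed in both tools, and 0.0559% of all genes passed. At an unadjusted p under 0.05 in edgeR 0 of 10 did, against 4.22%. The log2 fold changes ran from −0.08 for *Igfbp4* to 1.52 for *Pdgfra*, with a median of 0.23. The β-Mfn1KO group holds none of the 4 libraries that stood apart, and without them the median of β-Mfn1KO against Ctrl was −0.27 and that of β-Mfn2KO was −0.07.

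Set against the single knockouts, more of the genes passed against β-Mfn1KO than against β-Mfn2KO. Against β-Mfn1KO 4 of 10 genes passed, against 17.4% of all genes, 3 of them with the 1.5-fold limit, against 6.71%, and 10 of 10 log2 fold changes were positive, with a median of 0.97 against 0.09 over all genes. *Slc16a1* was higher by 1.31 (SE 0.39, adjusted p = 0.0191), *Acot7* by 0.89 (SE 0.28, adjusted p = 0.0295), *Smad3* by 0.79 (SE 0.24, adjusted p = 0.0263) and *Hk1* by 0.58 (SE 0.18, adjusted p = 0.0260). The ranges of both groups did not overlap for *Ldha*, *Slc16a1*, *Acot7* and *Pdgfra*, while 18.2% of all genes separated these groups. Without β-Mfn1/2DKO 4 and 5 none of these 4 genes passed, the background then being 12.5%. *Acot7* then stood at 0.95 (adjusted p = 0.0507), *Slc16a1* at 0.79, *Hk1* at 0.41 and *Smad3* at 0.22. Without all 4 libraries that stood apart 3 of 10 passed, against 14.6% of all genes. These were *Acot7* at 0.95 (adjusted p = 0.0305), *Pdgfra* at 2.70 (adjusted p = 0.0374) and *Ldha* at 0.81 (adjusted p = 0.0128). Among the single libraries, leaving out β-Mfn1KO 2 or 3 or β-Mfn1/2DKO 5 ended the call of *Slc16a1*, and leaving out β-Mfn1KO 1, 2 or 3 or β-Mfn1/2DKO 1 ended that of *Acot7*, with log2 fold changes still at 1.08 to 1.28 and at 0.73 to 0.90. Leaving out β-Mfn1KO 2, 3 or 4 or β-Mfn1/2DKO 4 or 5 ended those of *Hk1* and of *Smad3*, which then stood at 0.48 to 0.59 and at 0.55 to 0.80. Against β-Mfn2KO 1 of 10 passed, *Hk1* with 0.51 (SE 0.16, adjusted p = 0.0430), and 13.0% of all genes did. With the 1.5-fold limit 0 of 10 did, against 3.84%. Leaving out any of Ctrl 4, β-Mfn1KO 4, β-Mfn2KO 1, 2 and 4 and β-Mfn1/2DKO 4 and 5 ended that call, at 0.42 to 0.51. *Slc16a1* stood at 0.96 (SE 0.33, adjusted p = 0.0609) there, and passed when β-Mfn2KO 5, β-Mfn1/2DKO 1 or β-Mfn1/2DKO 3 was left out. Both comparisons share the β-Mfn1/2DKO libraries with the comparison against Ctrl and are not independent of it.

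The effect of losing *Mfn1* in islets without *Mfn2*, minus its effect in islets with *Mfn2*, passed for 0 of 10 genes in edgeR, against 5.92% of all genes, with 3 at an unadjusted p under 0.05, against 18.5%. DESeq2 also called 0 of 10. The differences were positive for 10 of 10 genes, with a median of 0.75 on the log2 scale against 0.03 over all genes. *Slc16a1* had 1.22 (SE 0.52, adjusted p = 0.196), *Hk1* 0.62 (SE 0.24, adjusted p = 0.149) and *Smad3* 0.72 (SE 0.33, adjusted p = 0.240). Without Ctrl 6 and β-Mfn2KO 5, 1 gene passed, against 5.11% of all genes.

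Sex was spread unevenly, as the 4 libraries that stood apart were all from males and the β-Mfn1KO group had 1 male. In female libraries, which hold none of the 4, *Pdgfra* was the 1 gene of 10 that passed in β-Mfn1/2DKO against Ctrl, with a log2 fold change of 2.48 (adjusted p = 0.000547), and 12.0% of all genes passed. Its raw counts were 0, 4 and 3 in female Ctrl, near the floor of 3 counts, and 46 and 119 in the deeper female β-Mfn1/2DKO libraries. *Slc16a1* was at 0.62 (adjusted p = 0.279) and *Hk1* at 0.25 (adjusted p = 0.276). Against female β-Mfn2KO 5 of 10 genes passed (*Ldha*, *Slc16a1*, *Hk1*, *Igfbp4* and *Pdgfra*), against 10.6% of all genes. Against female β-Mfn1KO 6 of 10 did, these 5 and *Acot7*, against 13.9%. The same 6 passed for the difference between the 2 effects of *Mfn1* loss, against 6.42%. These shares are over all genes, low ones included, so the excess of the members can be overstated. In the female single knockouts *Ldha* was the 1 gene that passed against Ctrl, at −0.87 in β-Mfn1KO and −0.79 in β-Mfn2KO, against 0.803% and 0.817% of all genes. The female fit had 10 libraries and 6 residual degrees of freedom and estimated no spread of a gene's own beyond the trend, so its p-values rest on the spread of all genes and can be too small for a variable gene such as *Ldha*, at 360.1 to 283 in female β-Mfn1KO and 349 to 742 in female Ctrl. In male libraries 0 of 10 passed in β-Mfn1/2DKO against Ctrl (6.70% of all genes did), with *Slc16a1* at 1.29 (adjusted p = 0.103) and *Hk1* at 0.67 (adjusted p = 0.0699). The difference between the sexes was not tested.

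The values of *Slc16a1* and *Hk1* under other processing are drawn side by side. Of 18 alternatives other than leaving out 1 library, *Slc16a1* kept a positive log2 fold change in 17 and passed in 9, and *Hk1* was positive in 18 and passed in 7. Leaving out Ctrl 2, 3, 4 or 5 or β-Mfn1/2DKO 4 or 5 ended the call of *Slc16a1*, at 0.82 to 1.02. Leaving out any of Ctrl 3, 4, 5 and 6, β-Mfn1KO 3 and 4, β-Mfn2KO 4 and β-Mfn1/2DKO 4 and 5 ended that of *Hk1*, at 0.38 to 0.49. With the acinar score as a covariate the log2 fold changes were 0.71 (adjusted p = 0.169) and 0.39 (adjusted p = 0.129), and with the mesenchymal score 0.90 (adjusted p = 0.0521) and 0.37 (adjusted p = 0.0971). With the endothelial score they were 0.01 and 0.15, and with depth class −0.21 and 0.25. The endothelial score was 4.34 to 5.0 in β-Mfn1/2DKO and 3.76 to 4.40 in the other libraries, with β-Mfn1/2DKO 3 below Ctrl 5, and the deep class held all 5 β-Mfn1/2DKO libraries and 2 of β-Mfn2KO, so these terms and the double knockout are hard to tell apart.

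**Figure D3:**
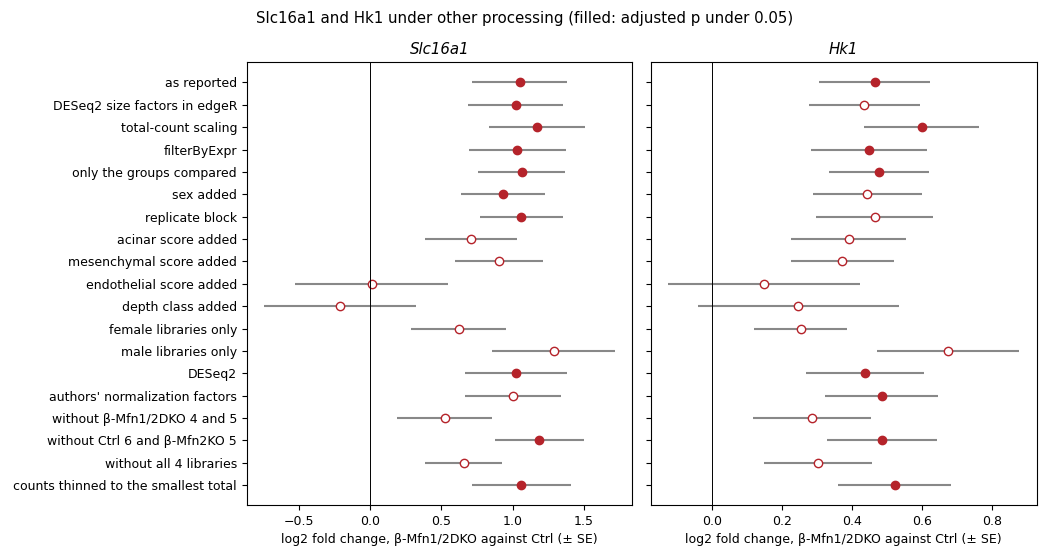
Log2 fold change of Slc16a1 (left) and Hk1 (right) in β-Mfn1/2DKO against Ctrl (x axis, ± SE) as reported and under 18 alternatives (y axis), with filled points where the adjusted p was under 0.05. Slc16a1 ran from −0.21 with depth class to 1.29 in males, and Hk1 from 0.15 with the endothelial score to 0.67 in males.

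Markers of other cells moved with β-Mfn1/2DKO too, and are given here as values beside the 2 genes that passed. All 10 β-cell markers fell, with a median log2 fold change of −1.05, and *Ins2* went from 218078 TPM in Ctrl to 127681 in β-Mfn1/2DKO. All 10 endothelial markers rose, with a median of 0.67, in the same direction as *Slc16a1* and *Hk1*, and their summed level was 88.1 to 131.0 TPM in Ctrl and 185.0 to 276.5 TPM in β-Mfn1/2DKO. Without β-Mfn1/2DKO 4 and 5, 6 of 10 rose, with a median of 0.48. All 15 acinar markers rose, with a median of 3.72, and summed to 735.8 to 4370.7 TPM in Ctrl and 1391.0 to 112805 TPM in β-Mfn1/2DKO, with no defining marker at 0 in any library. That rise came with β-Mfn1/2DKO 4 and 5, since without them 0 of 15 passed and the median was −0.80. With the replicate block 0 of 15 passed, with a median of 1.87. Of the 12 mesenchymal markers 1 rose (*Pdgfrb*) and 1 fell (*Col6a3*, −0.74), and their sums were 16.4 to 133.4 TPM in Ctrl and 28.8 to 59.2 TPM in β-Mfn1/2DKO, with *Lum* at 0 in 2 libraries. The highest Ctrl sum was that of Ctrl 6, and Ctrl 1 to 5 had 16.4 to 29.1 TPM. Without Ctrl 6 and β-Mfn2KO 5, 3 of 12 rose and 1 fell, and the median log2 fold change was 0.997 in place of 0.32, in the same direction as that of the 10 genes. Of 12 leukocyte markers 1 fell (*C1qa*, −0.54), and of 7 ductal markers 3 rose (*Krt19*, *Krt7* and *Muc1*). Without β-Mfn1/2DKO 4 and 5, 1 of the 7 ductal markers rose, with a median of 0.06 in place of 0.41. The α-cell hormone *Gcg* stood 0.42 higher on the log2 scale (adjusted p = 0.194), and 1 of 5 α-cell markers rose. Of 4 δ-cell markers 0 passed, the PP-cell hormone *Ppy* did not pass either, and of 5 Schwann cell markers 2 rose, *Foxd3* among them. The part of these cells in the rise of *Slc16a1* and *Hk1* was not tested beyond the fits with a score and the fits without libraries.

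Within genotypes the members followed some of these scores from library to library. Deviations of log2 CPM (counts scaled to a common library size) from each group's mean were compared over 20 libraries, as a description. The mesenchymal score went with *Pdgfra* (r = 0.88), *Ldha* (0.75), *Oat* (0.70) and *Igfbp4* (0.69), and the leukocyte score with *Ldha* and *Igfbp4* (0.83 each) and *Pdgfra* (0.79). The acinar score went with *Smad3* (0.67) and *Mgst1* (0.62), and less with *Slc16a1* (0.43) and *Hk1* (0.22). The ductal score went more strongly with each of these 4, at 0.78 for *Smad3* and *Mgst1*, 0.56 for *Hk1* and 0.50 for *Slc16a1*. *Slc16a1* had 0.58 with the leukocyte score and 0.50 with the mesenchymal score, and *Hk1* had 0.42 and 0.49. The β-cell score ran against all 10, from −0.24 for *Acot7* to −0.84 for *Smad3*, and the points share libraries, depth and composition. Between members the median r over 45 pairs was 0.61, with 31 pairs over 0.5, and 0.44 with 20 pairs over 0.5 when Ctrl 6 and β-Mfn2KO 5 were left out.

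**Figure D4:**
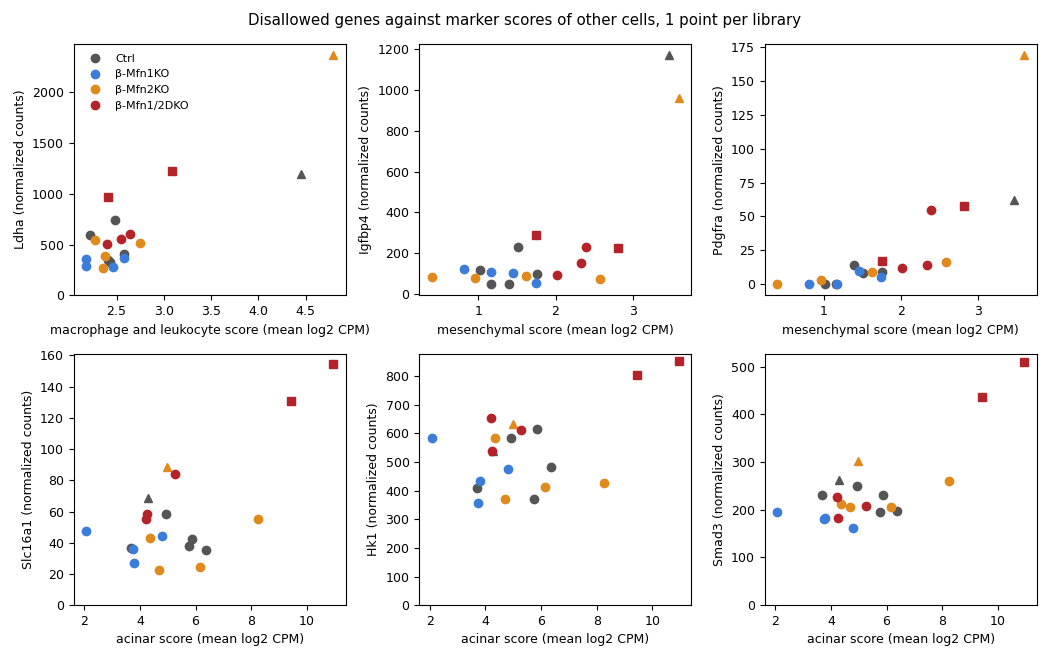
Normalized counts (y axis) of 6 disallowed genes against a marker score of another cell type (x axis, mean log2 CPM of its markers), with 1 point per library coloured by genotype. Triangles are Ctrl 6 and β-Mfn2KO 5, at the right in the leukocyte and mesenchymal panels, and squares are β-Mfn1/2DKO 4 and 5, at the right in the acinar panels, where Slc16a1, Hk1 and Smad3 are highest.

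The genes most like each member over the libraries were found among 12274 genes whose mean was 100 normalized counts or more, by the same deviations. *Ldha* was most like *Myof* (r = 0.93), *Fabp5* (0.93), a fatty acid binding protein, and *Mfge8* (0.92), a secreted bridge for the uptake of dying cells. *Igfbp4* was most like *S100a6* (0.92), *Tagln* (0.90), an actin-binding protein of smooth muscle, and *Serpinh1* (0.90), the collagen chaperone. These values rested in part on Ctrl 6 and β-Mfn2KO 5, as *Tagln* had r = 0.44 with *Igfbp4* without them. *Smad3* was most like *Hspa1b* (0.94), *Tpm1* (0.93) and *Hspa1a* (0.92), and kept r = 0.96, 0.92 and 0.94 without them. *Hspa1b* and *Hspa1a*, near-identical copies of the inducible HSP70 chaperone whose counts may be split uncertainly between them, were highest in β-Mfn1/2DKO 5, and β-Mfn1/2DKO 4 was next within β-Mfn1/2DKO, at 1281 and 778 normalized counts for *Hspa1b* and 1120 and 674 for *Hspa1a*. The other β-Mfn1/2DKO libraries had at most 255 and 262, below the Ctrl medians of 427 and 503, and 2 Ctrl libraries lay above β-Mfn1/2DKO 4 for *Hspa1a*. *Tpm1*, a tropomyosin, stood at 7301 in β-Mfn1/2DKO 5 and 5427 in β-Mfn1/2DKO 4 against 3374 next in β-Mfn1/2DKO. *Hk1* was most like *AI506816* (0.84), *Ppfibp1* (0.83) and *Asap1* (0.83), *Acot7* like *Mical1* (0.77), *Rab15* (0.75) and *Pxdn* (0.71), and *Oat* like *Noc4l* (0.83), *Igfbp4* (0.80) and *Pik3cd* (0.80). *Hk2*, *Mgst1*, *Pdgfra* and *Slc16a1* had a mean under 100 normalized counts and were left out of this search.

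A further 20 genes that have been listed as disallowed in β-cells were read beside the 10. In β-Mfn1/2DKO against Ctrl 5 of 20 passed, all 5 higher, with a median log2 fold change of 0.44. That share is near the 17.3% higher among genes with a mean of 20 normalized counts or more, of which 29.4% passed in all. *Cat*, catalase, rose by 0.92 (SE 0.14, adjusted p = 6.33e-05), and *Lmo4*, a LIM-domain transcription cofactor, rose by 0.68 (SE 0.13, adjusted p = 0.000540). *Zyx*, a focal adhesion protein, rose by 1.32, *Yap1*, the effector of Hippo signalling, by 1.31 and *Zfp36l1*, an mRNA decay factor, by 1.18. The count was 2 of 20 without β-Mfn1/2DKO 4 and 5, against 11.2% of all genes, and 10 of 20 without Ctrl 6 and β-Mfn2KO 5, against 17.9%. In the single knockouts 0 of 20 passed in edgeR against Ctrl, with 2 in β-Mfn1KO and 1 in β-Mfn2KO at an unadjusted p under 0.05, against 7.44% and 4.22% of all genes.

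The partners of the 10 genes were read from lists of their pathways, whose counts stand beside 17.3% higher and 12.1% lower among genes with a mean of 20 normalized counts or more. Of 10 other genes of lactate and monocarboxylate handling, *Ldhd*, the mitochondrial D-lactate dehydrogenase, rose by 0.33 and *Slc16a12*, a creatine transporter, fell by 0.51 on the log2 scale, while *Slc16a3* (MCT4) stood at −0.58 (adjusted p = 0.428). In the list of glucose phosphorylation *G6pc2*, the islet glucose-6-phosphatase, fell by 1.02. Of 12 other acyl-CoA thioesterases *Acot9* rose by 0.73 and *Acot2* by 0.56, both mitochondrial, and *Acot11* fell by 0.22. In the IGF list of 12, *Igfbp5* rose by 1.23, from 4315 ± 1102 (SD, n = 6) to 10141 ± 1386 (SD, n = 5) normalized counts, and the growth factor *Igf2* fell by 0.84. In the PDGF list of 5, both ligands *Pdgfb* and *Pdgfa* rose, by 0.79 and 0.50, together with *Pdgfrb*.

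Among 12 genes around ornithine and proline, *Prodh*, proline dehydrogenase, rose by 1.02, and *Azin1*, the antizyme inhibitor, fell by 0.21. Of 14 other glutathione transferases 3 rose, *Gsto1* by 1.09, *Gstm7* by 0.96 and *Gstm2* by 0.57, and none fell. Of 16 genes of SMAD and TGF-β signalling 5 rose and none fell, beside that background of 17.3% higher. Among these were the inhibitory *Smad6* and *Smad7* with 0.60 and 0.46, and the corepressors *Skil* and *Ski* with 0.32 and 0.22. Of 14 genes of DNA and histone methylation and other silencing, *Bmi1*, *Ezh2* and *Eed* of the Polycomb complexes rose by 0.51, 0.46 and 0.18, and the maintenance methyltransferase *Dnmt1* fell by 0.23. Apart from that of *Slc16a3*, the log2 values of these lists are edgeR log2 fold changes of β-Mfn1/2DKO against Ctrl with an adjusted p under 0.05, and the plot of lists gives each share beside those of the cell type markers.

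**Figure D5:**
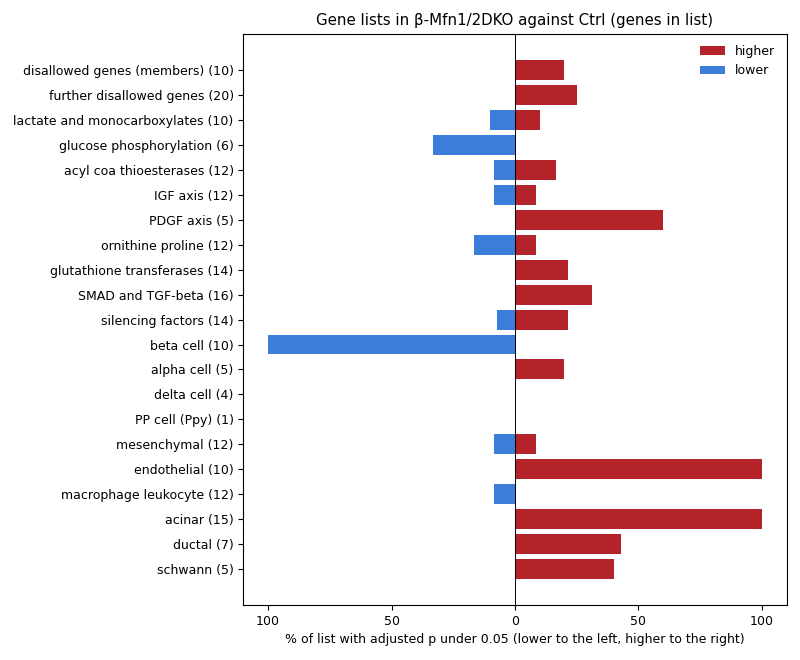
Percent of the genes of each list (y axis, number of genes in parentheses) that passed an adjusted p under 0.05 as higher (right) or lower (left) in β-Mfn1/2DKO against Ctrl (x axis). The 10 disallowed genes gave 2 higher and 0 lower, the 10 β-cell markers 10 lower, and the 15 acinar and 10 endothelial markers all higher, of which 0 and 6 rose without β-Mfn1/2DKO 4 and 5.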

How the data were processed

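RNAseq of islet RNA was measured in 20 libraries. The submitters' processing notes name cutadapt 2.3, FastQC 0.11.8, STAR 2.6.1b, RSEM 1.3.1 and DESeq2 1.26.0, with the build GRCm38. The authors deposited RSEM gene counts as whole numbers, without normalization. They also deposited a normalized signal, in which each count was divided by a factor of the authors' own, and which was used here only to recover those factors as an alternative. All sample columns were used (0 left out). Strand in counting is not given in the sources used here.

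The test was edgeR 4.0.16 (glmQLFit and glmQLFTest after TMM scaling, in R 4.3.3), run as 1 model of 4 group means on all 28632 genes. P-values were adjusted by Benjamini-Hochberg within each contrast across those genes, and all adjusted p-values are from edgeR unless DESeq2 1.42.0, an alternative, is named. A gene passed at an adjusted p under 0.05 and was called with a fold over 1.5 as well. Normalized counts are TMM-scaled to the mean effective library size. TPM was computed here from counts and GENCODE exon lengths. Marker scores are mean log2 CPM (prior count 1). Depth ran from 12.4 to 122.9 M counts, and floors of 3 counts cover counting error only. In counts simulated for the comparison of Ctrl and β-Mfn1/2DKO over 28094 genes, changes were put into genes with a mean of 100 normalized counts or more. The test recovered 39 of 50 genes changed 1.5-fold and 49 of 50 changed 2-fold, with 14 others called. *Slc16a1*, *Hk2*, *Mgst1* and *Pdgfra* lay below that mean, so this recovery does not cover them. The changed genes were drawn at random, and no simulated library was made to stand apart. The recovery therefore does not hold for members as variable as *Igfbp4* and *Ldha*, whose log2 fold changes had SEs of 0.72 and 0.43. No pair of libraries of a group agreed within sampling noise. At most 4.05% of the 75-base stretches of a member's transcripts (*Pdgfra*) occur in other genes, and antisense genes held at most 0.443% of a member's counts. The genes that share stretches were highly counted for *Ldha* (2.692% of stretches, 318.2% of its counts) and *Igfbp4* (0.432%, 4691%). How far that moved the counts of these members was not tested.

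The members and lists were chosen with earlier results of these data known. The text names all 10 members, the 3 most alike genes of members whose mean was 100 normalized counts or more, list genes that passed in β-Mfn1/2DKO against Ctrl (at most 6 per list, by size of change; cell type markers mostly as counts), and *Ldhb*, *Pdgfrb*, *Gcg* and *Ins2*. Some genes of the lists are not reported here. Alternatives were other scalings, filterByExpr, only the groups compared, sex, replicate number, marker scores or depth class as covariates, each sex alone, DESeq2 and leaving out each library. Chosen after seeing the data were the authors' factors, leaving out the libraries that stood apart, thinned counts (seed 20) and libraries above 40 M counts only. Other steps used pandas 2.3.3, NumPy 2.4.6 and Matplotlib 3.10.9 under Python 3.11.15.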

Additional observations from a re-analysis of the deposited data

Results flagged for a closer look

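Within each genotype, every disallowed gene was checked for a library far from the others of its group, by the gap to its nearest neighbour relative to the range of the group. Of 40 groups of values 7 were past the 95% limit, and all 7 were the highest value of Ctrl 6 or β-Mfn2KO 5. The genes share the same 20 libraries and moved together, with a median r of 0.61 over 45 pairs. The 40 groups are therefore not independent, and no chance rate is set beside the 7. In β-Mfn2KO 5 *Ldha* stood at 2366 normalized counts, *Hk2* at 114.9, *Igfbp4* at 962.2, *Pdgfra* at 169.1 and *Mgst1* at 148.6. In Ctrl 6 *Igfbp4* stood at 1171 and *Pdgfra* at 62.26. The same 2 libraries had the highest summed levels of mesenchymal and of leukocyte markers, and the part of those cells in these values was not tested.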

How the results depend on the processing

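The count of members that passed in β-Mfn1/2DKO against Ctrl was 2, and 1 with the fold limit. The first was 1 with DESeq2 size factors, sex, the authors' factors or female libraries and 0 with the acinar, mesenchymal or endothelial score, depth class, male libraries, without β-Mfn1/2DKO 4 and 5 or without all 4 libraries that stood apart. Over all 28632 genes 4710 passed in the full fit, 4048 with the acinar score and 4382 with the mesenchymal score. With the endothelial score 551 passed and with depth class 728, so a count of 0 there says little about the members. In male libraries 1917 passed, without β-Mfn1/2DKO 4 and 5 3221 and without all 4 libraries 3999. The second was 2 with total-count scaling or without Ctrl 6 and β-Mfn2KO 5, and 0 with any of the 3 scores, depth class, male libraries, the authors' factors, without β-Mfn1/2DKO 4 and 5 or without all 4. Over all genes that count was 1491 in the full fit, 1947 with total-count scaling, 346 with the endothelial score and 481 with depth class. For the comparisons that follow, shares of all genes are given only in the sections above. Leaving out 1 library gave 0 to 3 and 0 to 2. Against β-Mfn1KO the counts were 4 and 3. The first was 1 with the acinar score, 2 with thinned counts and 0 with the mesenchymal or endothelial score, depth class or without β-Mfn1/2DKO 4 and 5. The second was 5 with total-count scaling, in females and without Ctrl 6 and β-Mfn2KO 5, 6 in the fit of only these groups, 1 with the acinar score and 0 under the same 4 settings as the first. Leaving out 1 library gave 0 to 5 for both. Against β-Mfn2KO the counts were 1 and 0. The first was 2 with total-count scaling, filterByExpr, sex or DESeq2, 5 in females, 4 without Ctrl 6 and β-Mfn2KO 5, and 0 with DESeq2 size factors, only these groups, the acinar or endothelial score, depth class, males, the authors' factors, without β-Mfn1/2DKO 4 and 5, without all 4 or in deep libraries. The second was 2 with total-count scaling, 1 with filterByExpr, sex or DESeq2, 5 in females and 4 without Ctrl 6 and β-Mfn2KO 5. Leaving out 1 library gave 0 to 2 for both. Each single knockout against Ctrl gave 0, and 1 in females, and 0 without any 1 library. The difference between the effects of *Mfn1* loss gave 0, and 6 in females, 1 without Ctrl 6 and β-Mfn2KO 5 and 0 to 2 when leaving out 1 library. The causes of these changes were not tested.

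Several log2 fold changes of β-Mfn1/2DKO against Ctrl turned. With depth class they were −1.55 for *Ldha*, −0.21 for *Slc16a1*, −0.45 for *Hk2*, −2.30 for *Pdgfra*, −0.047 for *Oat* and −0.83 for *Mgst1*. With the endothelial score they were −0.67 for *Ldha*, −1.03 for *Hk2*, −1.14 for *Mgst1* and −0.42 for *Smad3*, and −0.26 for *Smad3* against β-Mfn1KO, and with the acinar score −0.16 for *Mgst1*. Without β-Mfn1/2DKO 4 and 5 they were −0.10 for *Ldha*, −0.27 for *Hk2*, −0.59 for *Mgst1* and −0.12 for *Smad3*, and without all 4 libraries −0.045 for *Hk2*, −0.54 for *Mgst1* and −0.084 for *Smad3*. In females they were −0.12 for *Hk2*, −0.64 for *Mgst1* and −0.11 for *Smad3*. *Igfbp4* turned to 0.35 in females, 0.81 without Ctrl 6 and β-Mfn2KO 5, 0.51 without all 4, and ran from −0.76 to 0.81 when leaving out 1 library, the highest without Ctrl 6. *Acot7* and *Hk1* stayed positive under all alternatives to this comparison.

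Libraries with the same replicate number were not treated as pairs in the test, yet they were more alike than others. Their mean r was 0.253 over 27 pairs (lowest −0.0944), with 21 over 0.1. Between other numbers it was −0.0559, with 37 of 122 over 0.1. What the number stands for is not given, and in each group the lower numbers were from females. With the replicate block the count in β-Mfn1/2DKO against Ctrl was 1 in place of 2, that against β-Mfn2KO was 2, and 1 with the fold limit, and *Igfbp4* turned to 0.76. Of the further 20 disallowed genes 9 then passed as higher against Ctrl, in place of 5, and 2876 of all 28632 genes did. Depth limits *Slc16a1*, *Hk2*, *Mgst1* and *Pdgfra* in the shallow groups, with 10 to 22 raw counts for *Slc16a1* in Ctrl. Comparisons of β-Mfn1KO, whose libraries are all shallow, could not be run in deep libraries, and those of male β-Mfn1KO, with 1 library, were not run.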

Other observations

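The summed TPM of the 10 disallowed genes was 32.4 ± 16.0 in Ctrl (SD, n = 6), 21.8 ± 1.78 in β-Mfn1KO (SD, n = 4), 40.4 ± 31.2 in β-Mfn2KO (SD, n = 5), and it reached 48.9 ± 12.7 in β-Mfn1/2DKO (SD, n = 5). The lowest and highest libraries were 17.6 and 61.4 in Ctrl, 19.4 and 23.3 in β-Mfn1KO, 20.2 and 95.6 in β-Mfn2KO and 35.2 and 67.2 in β-Mfn1/2DKO. The ranges of β-Mfn1KO and β-Mfn1/2DKO did not overlap, and those of Ctrl and β-Mfn1/2DKO did.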
